A study of Mus musculus with 2 samples.

Results

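Untreated-only DPPA2 peaks were the peaks called in untreated cells that overlapped no peak called after adriamycin by 1 bp or more. They numbered 1430 of the 7043 untreated peaks on chromosomes 1 to 19, X and Y, or 20.3%, and 1430 of 23272 peaks in both lists. The members were chosen by overlap between the lists, so that share is a description, as are the strengths and distances that follow from it. The peaks come from ChIP-seq (sequencing of DNA that precipitates with a protein) against DPPA2 in R1/E, an embryonic stem cell line of the mouse with wild-type p53. One group was given adriamycin (doxorubicin, which traps topoisomerase on DNA and breaks it) for 8 h, and the other was untreated. Both groups were grown on gelatin with leukemia inhibitory factor, precipitated with the same antibody, and had 1 library each. No difference here therefore has a replicate check, and no test between the libraries was possible. The adriamycin list held 16229 peaks and the untreated list 7043. An untreated peak with no adriamycin partner is a site that did not pass the caller's threshold in the treated library, and lack of a call is not lack of signal.

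DPPA2 is a small SAP-domain protein that binds DNA together with DPPA4 and is made in pluripotent cells and the germline. In mouse embryonic stem cells it is known at CpG-rich promoters, among them those of bivalent developmental genes, which carry activating and repressive histone marks together. It is also known to act upstream of Dux and the genes of the 2-cell embryo. Adriamycin damage activates p53, which turns on cell cycle arrest and apoptosis genes, and the study's title joins DPPA2 to that response.

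The promoters that held untreated-only summits were mostly CpG-dense, and 4 of them are shown to let the reader see the range. They are 300-base promoters from RefSeq on build GRCm38.p6, the same assembly as the deposited mm10 coordinates. Each runs 5′ to 3′ on the gene's own strand, from 250 bases before the listed transcription start to 50 bases from it, and capitals mark CG dinucleotides. All 4 genes lie on the minus strand, and they were chosen for display after their values were seen. Mras shows the CpG-dense form, Asz1 is the promoter of a germline gene, Trp73 is an internal start in a p53 family gene, and Defa38 is a CpG-poor contrast.
Asz1: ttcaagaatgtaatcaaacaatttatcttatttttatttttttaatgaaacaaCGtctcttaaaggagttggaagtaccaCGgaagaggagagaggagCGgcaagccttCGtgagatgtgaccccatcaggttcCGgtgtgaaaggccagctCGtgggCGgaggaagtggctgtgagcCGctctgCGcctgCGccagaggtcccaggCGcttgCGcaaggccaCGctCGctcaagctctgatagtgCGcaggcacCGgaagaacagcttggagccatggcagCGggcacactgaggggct
Mras: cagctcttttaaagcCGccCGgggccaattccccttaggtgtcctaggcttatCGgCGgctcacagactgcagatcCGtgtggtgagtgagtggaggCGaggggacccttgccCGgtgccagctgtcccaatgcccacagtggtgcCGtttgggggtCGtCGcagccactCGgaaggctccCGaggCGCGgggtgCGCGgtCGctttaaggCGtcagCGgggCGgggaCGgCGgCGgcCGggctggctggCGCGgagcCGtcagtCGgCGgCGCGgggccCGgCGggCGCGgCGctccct
Trp73: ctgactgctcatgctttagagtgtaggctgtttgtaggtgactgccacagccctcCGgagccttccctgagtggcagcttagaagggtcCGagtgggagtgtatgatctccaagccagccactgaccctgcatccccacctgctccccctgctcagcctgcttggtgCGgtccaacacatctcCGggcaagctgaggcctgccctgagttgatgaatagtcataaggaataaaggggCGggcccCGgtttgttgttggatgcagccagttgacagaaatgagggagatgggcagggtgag
Defa38: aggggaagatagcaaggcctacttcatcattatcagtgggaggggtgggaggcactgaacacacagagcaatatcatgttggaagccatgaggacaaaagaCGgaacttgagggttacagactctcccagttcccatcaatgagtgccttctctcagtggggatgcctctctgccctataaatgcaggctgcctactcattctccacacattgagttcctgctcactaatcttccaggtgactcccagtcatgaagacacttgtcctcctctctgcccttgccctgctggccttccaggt

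The Mras window, at chr9:99436663-99436962, holds 36 CG dinucleotides at 71.7% G+C and has the untreated-only summit at base 271, 20 bp into the transcript of this RAS-family GTPase. That summit is over 1 kb from the outer ends of Mras, so it is not among the gene-end peaks below. Asz1 encodes a mitochondrial-surface protein of the germline piRNA pathway. Its window at chr6:18109012-18109311 holds 17 CG at 54.3% G+C, and the summit sits at base 85, 166 bp before the start. The Trp73 window at chr4:154097124-154097423 has 6 CG at 57.7% G+C and a summit at base 230, 21 bp before a start that lies inside the gene. The Defa38 window at chr8:21096001-21096300, from a Paneth-cell defensin cluster, has 1 CG at 51.7% G+C and its summit at base 238.

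Across all such promoters, 74 windows of 70 genes, 63 windows of protein-coding genes and 11 of lncRNA genes, held an untreated-only summit. Their median was 30.5 CG per 300 bases and 70.8% G+C, against 7 CG and 52.7% over all 32851 promoters of the table. A promoter was called CpG-rich when its observed-to-expected CG ratio was at least 0.6 and its G+C at least 50%. By that measure 63 of the 74 were CpG-rich, or 85.1% (95% interval 75 to 92.3), against 86.9% of promoters under shared summits, 81.6% under adriamycin-only summits and 33.5% of all promoters. Shared peaks are untreated peaks that overlap an adriamycin peak, and adriamycin-only peaks are the reverse of the untreated-only ones. Intervals on shares in this text are exact Clopper-Pearson intervals, which cover counting error only. The shares of motifs and gene lists, and some others, are given without an interval. The interval for the untreated-only promoters holds the values of both other peak sets and lies far from that of all promoters. It treats windows as separate draws, although some overlap. Such windows belong to 1 gene, as at Dnaja1, or to neighbouring genes under 1 peak, as at Marchf6 and Gm41287. Within 1 kb of a start there were 338 promoters with an untreated-only summit, of which 70.7% were CpG-rich, against 74.0% for shared and 73.6% for adriamycin-only summits.

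Short motifs were counted in these windows on both strands. GGGCGG, the core of the GC box bound by SP-family factors, was in 74.3% of the 74 windows, against 78.4% under shared summits, 76.4% under adriamycin-only summits and 35.7% of all promoters. CCAAT, the box bound by NF-Y, was in 25.7% of the 74, against 23.5%, 25.3% and 37.4% in the same order. TATAAA, the TATA box, was in 2.7% of the 74, against 2.35%, 3.35% and 13.6%. In windows with a summit inside them, the contrasts with all promoters for these 3 motifs were thus alike in the 3 peak sets. CACGTG, the E-box bound by MYC and USF proteins, was in 2 of the 74 windows (2.7%), against 5.63%, 8.92% and 7.15%. Among the 338 promoters with an untreated-only summit within 1 kb of the start it was in 9.17%, on the other side of the value for all promoters. CCAAT was in 35.2% of those 338, near the 37.4% of all promoters, against 29.7% for shared and 30.7% for adriamycin-only summits. The lower CCAAT share of the 74 windows was thus not seen in the larger untreated-only set. GGGCGG was in 62.1% of the 338, against 71.1% and 69.9%, and TATAAA in 5.62%, against 4.75% and 5.49%. GGGCGG itself contains a CG, so its counts share bases with the CG counts. A match is a description of letters and not of binding.

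The untreated-only peaks were narrow and modest in height, and weak untreated peaks made up much of the set. The fold used here is the authors' value for each peak, the summit over its local background, and ranks peaks within a list. Its median was 4.61 in untreated-only peaks (quartiles 4.14 and 5.24, range 2.23 to 9.12), against 5.40 in shared peaks of the same library (quartiles 4.58 and 6.49, highest 33.5). The number of fragments at the summit, recovered from the deposited values, had a median of 13 in untreated-only peaks (quartiles 11 and 15) and 15 in shared peaks (quartiles 12 and 19). Local background was alike, with medians of 1.88 and 1.92 fragments. Median widths were 231 and 313 bp. The shortest width in the list, 200 bp, belonged to 26.8% of untreated-only peaks and 8.77% of shared peaks.

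When the untreated list was cut into 10 equal classes by −log10 q, the untreated-only share was 38.9% in the weakest class (274 of 705 peaks; 95% interval 35.2 to 42.6). It was 24.3% in class 5 and 0.709% in the strongest (5 of 705; 0.231 to 1.65). Each class from the weakest upward held a smaller share than the one before it. The weakest signals had the most peaks without a partner and the strongest almost none, a pattern that the choice of members by overlap partly fixes. Only 515 untreated-only peaks (36.0%) had a fold of 5 or more, against 3536 shared peaks (63.0%). At the genome-wide background, which was 1.03 fragments in the adriamycin and 1.19 in the untreated library, the lowest called summit held 6 fragments after adriamycin and 7 without it.

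**Figure D1:**
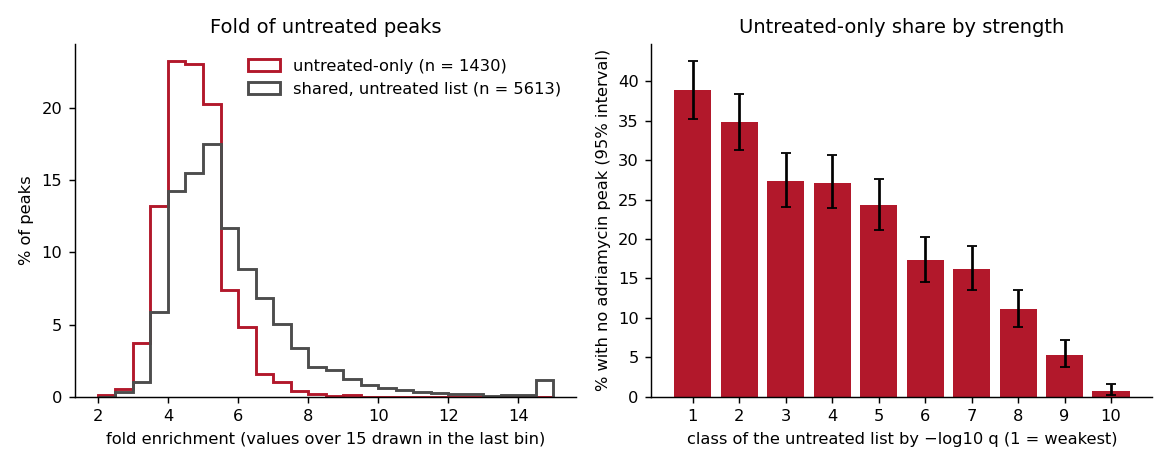
Left, distribution of the authors' fold enrichment (x axis) as % of peaks (y axis) for untreated-only peaks and for shared peaks of the untreated list, with values above the last bin drawn in it. Right, % of untreated peaks with no adriamycin partner in each of 10 equal classes of the untreated list by −log10 q, bars with 95% binomial intervals, weakest at left; the share is 38.9% there and 0.709% in the strongest class.

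One untreated-only peak stood apart in height. It lay at chr9:3010847-3011075, between genes with Alkbh8 the nearest protein-coding gene, and held 509 fragments over a local background of 228, for a fold of 2.23, the lowest of the set. An adriamycin summit lay 1288 bp away. High local background, at 5 times the genome-wide value or more, was found under 28 untreated-only peaks (1.96%) and 145 shared peaks (2.58%).

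About 1 in 5 untreated-only summits lay at a protein-coding gene, counted at its ends, and the rest lay in gene bodies or between genes. Within 1 kb of either end of a protein-coding gene there were 290 of 1430 untreated-only summits, or 20.3% (18.2 to 22.5). The share was 16.2% for shared peaks (15.2 to 17.2) and 22.7% for adriamycin-only peaks (21.9 to 23.5). Such windows make up 3.10% of the bases from first to last annotated gene, with chromosomes weighted by their untreated-only peaks. A further 514 untreated-only summits (35.9%) were deeper inside a gene, against 29.9% of shared and 37.6% of adriamycin-only summits. Between genes lay 626 (43.8%), against 53.9% and 39.7%. Of the bases weighted in that way 38.2% are deeper inside genes and 58.7% between them. The 3 sets are peaks of 2 libraries, not replicates, and their intervals at gene ends overlap only for the untreated-only and adriamycin-only sets.

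**Figure D2:**
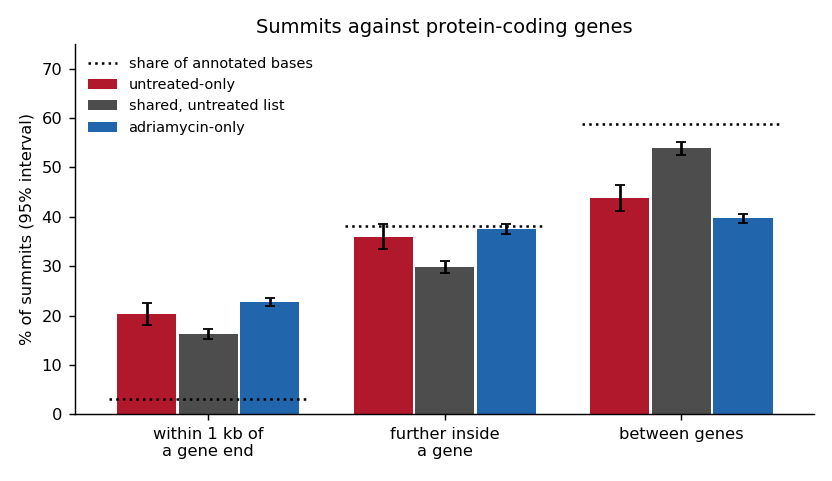
Share of summits (y axis, %) within 1 kb of a protein-coding gene end, further inside a gene, and between genes, for untreated-only, shared and adriamycin-only peaks, with 95% binomial intervals. Dotted lines give the share of annotated bases in each class, with chromosomes weighted by their untreated-only peaks. Untreated-only peaks lie between the other sets in each class, with 20.3% at gene ends.

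Position went with strength in the untreated library. Of untreated-only peaks with a fold under 4, 20.6% were at a gene end, and of those with a fold of 4 to 5, 24.3%. The share was 17.4% for folds of 5 to 6 and 6.72% (2.95 to 12.8) for folds of 6 or more. Shared peaks in the same fold classes had 30.2%, 25.3%, 15.2% and 6.07% at gene ends. Below a fold of 4 the untreated-only peaks (15.8 to 26.2) and the shared peaks (25.8 to 34.9) had intervals that overlapped narrowly, and in the higher classes the intervals overlapped more.

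Where the RefSeq promoters give a strand, the summits favoured the start of the gene and the first bases of the transcript. Gene starts had 193 untreated-only summits (13.5%), far ends alone 41 (2.87%), and 56 (3.92%) were at ends of genes with no strand given. The far-end share was 1.66% for shared and 2.07% for adriamycin-only peaks. Chromosome 18, with 43 untreated-only peaks, has no listed starts. Over the 1387 untreated-only peaks on chromosomes with listed starts, the density was 2.74% of summits per 100 bp in the 250 bp after the start, with 95 summits there. It was 0.952% per 100 bp in the 250 bp before the start and 1.30% from 250 to 500 bp after it. From 500 to 1000 bp after the start it was 0.562%, against 0.342% for shared and 0.377% for adriamycin-only peaks. All 3 sets were highest just inside the transcript.

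**Figure D3:**
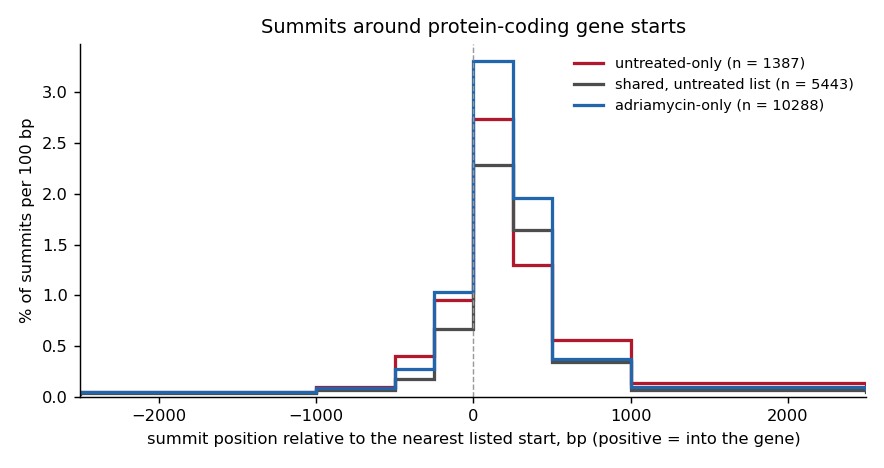
Density of summits (y axis, % of summits per 100 bp) by position relative to the nearest listed protein-coding start (x axis, bp, positive into the gene) for untreated-only, shared and adriamycin-only peaks. The 3 sets are highest in the 250 bp after the start, where untreated-only peaks reach 2.74% per 100 bp.

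The 290 gene-end peaks marked 315 protein-coding genes, 1.44% of the 21887 in the annotation. By the same measure 5.78% of genes had an untreated summit of any kind at an end and 16.0% had an adriamycin summit. Of the 315 genes, 55 also carried an adriamycin summit within 1 kb of an end, at another position, and 260 did not. In 12 a shared untreated summit was also present at an end. The nearest adriamycin summit was over 10000 bp from both ends in 198 genes and over 100000 bp in 44. Folds at these genes ran from 3.09 to 7.29, with a median of 4.45, and the summit was a median of 355 bp from the gene end and inside the gene in 250 of 317 gene and peak pairs.

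The strongest of these peaks were at genes of varied function. Only the outer ends of each gene were used, so peaks at other listed starts are not ranked here. Examples left out are Gm33989, with a fold of 7.14 and a summit 166 bp before a listed start, and Plekho1, with 6.21. Stimate, which encodes a regulator of store-operated calcium entry in the endoplasmic reticulum, had a fold of 7.29 with 20 fragments over 1.88, its summit 194 bp inside the start on chromosome 14 (30825615-30825879). Fcgr3, an immunoglobulin Fc receptor of myeloid cells, followed at 6.67 with 23 fragments over 2.60 and a summit 3 bp inside its start on chromosome 1. An adriamycin summit lay 1429 bp from the Fcgr3 summit and 50100 bp from the Stimate summit. A different adriamycin summit was 1341 bp from an end of Stimate, outside the 1 kb limit. Hectd2, a HECT-type ubiquitin ligase gene, had 6.52 with 17 fragments, and no adriamycin summit within 144160 bp of an end. St6galnac1, a sialyltransferase gene, had 6.46 with 22 fragments, and Vps13a, whose product carries lipids between membranes, had 6.4 with 15.

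The next in order included a germline gene and a kinase gene. Gm38538, a predicted gene, had a fold of 6.39 and was the 1 of the 12 strongest genes with an adriamycin summit within 1 kb of an end, at a fold of 6.31 and 456 bp from the untreated summit. Asz1 had 6.10 with 14 fragments (exact Poisson interval 7.65 to 23.5) over 1.46, and the nearest adriamycin summit was 106055 bp away. Bmp2k, a kinase that phosphorylates the clathrin adaptor, had a fold of 6, with an adriamycin summit 3166 bp from an end. Tulp4 had 5.98 at its far end, and Tmbim1, a membrane protein of lysosomes and Golgi, had 5.95 at its start. The predicted genes Gm10476, Gm19802 and Gm52416 tied at 5.93 for the last of 12 places, each with 12 fragments at the genome-wide background.

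Few genes had an untreated-only peak at both ends. Taf3, which encodes a TFIID subunit that reads the histone mark of active promoters, had an untreated-only peak 208 bp inside its start at a fold of 5.84 with 15 fragments. It had a second peak 868 bp inside its far end at 4.81 with 12 fragments. Dym, a Golgi-organising gene, had folds of 4.79 and 3.85 at its ends, with 13 and 12 fragments. No other gene had more than 1 untreated-only summit at its ends. The nearest adriamycin summit was 97664 bp from an end of Taf3 and 14339 bp from an end of Dym.

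A single untreated-only peak lay at the ends of a pair of genes in 27 cases (1.89% of the peaks), against 1.28% of shared and 2.31% of adriamycin-only peaks. In 11 cases both ends were starts, in 5 both were far ends, in 2 a start met a far end, and in 9 a strand was not given. The following pairs were picked after their values were seen. Hs2st1, a heparan sulfate sulfotransferase gene, and Selenof, a selenoprotein gene, shared a peak with a fold of 5.22 and 13 fragments. Drosha, which encodes the nuclease that releases miRNA hairpins, shared one with 6030458C11Rik at 4.58 with 13 fragments. Atp5c1, an ATP synthase subunit gene, and Kin, a DNA-binding protein gene, shared one at 4.55 with 14 fragments. Smpd2 and Ppil6 had 5.00, and Bag1, a chaperone regulator gene, and Chmp5, an ESCRT gene, had 4.36.

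Few genes of the pathways the study deals with were among the 315, and each such count must be read against 1.44% of all genes. The gene lists were drawn up with earlier results of these data known, and their counts are descriptions. Of 44 germline genes 2 had an untreated-only summit at an end (4.55%), namely Asz1 and Hormad1, while 7 had any untreated summit and 18 (40.9%) an adriamycin summit. Hormad1, a meiotic chromosome axis gene, had a fold of 4.92 with 12 fragments, 256 bp before its start, and an adriamycin summit 8076 bp from an end. Neither gene had an adriamycin summit at an end. Of 60 Wnt pathway genes 2 were marked (3.33%), both encoding Frizzled receptors, and 20 (33.3%) had an adriamycin summit.

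Fzd3 and Fzd9 differed in their surroundings. At Fzd3 the fold was 4.84 with 14 fragments over 2.10, and an adriamycin summit of fold 5.10 lay 324 bp away, its peak starting 25 bp from the untreated peak. At Fzd9 the fold was 3.78 with 12 fragments over 2.44, and the nearest adriamycin summit was 62685 bp away. Without an overlap, Fzd3 thus counted as untreated-only although both libraries had a peak at the same gene end.

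Among 47 apoptosis genes Bok and Fasl were marked (4.26%), and 8 (17.0%) had an adriamycin summit. Fasl, the ligand of the FAS death receptor, had a fold of 5.00 with 15 fragments over 2.20, its summit 439 bp into the transcript and 170645 bp from any adriamycin summit. Bok, a BCL2-family effector of mitochondrial death, had 3.62 with 15 fragments over 3.42, and 48688 bp to the nearest adriamycin summit. No gene end was marked in the lists of 44 p53 targets, 48 DNA damage response genes, 41 pluripotency genes, 31 genes of the 2-cell embryo, or the 9 genes of the DPPA and p53 core. Adriamycin summits were at ends of 8, 10, 6, 1 and 1 genes of these lists. With shares of 1.44% over all genes, lists of this size would each be near 1 gene or none, so the zeros are not set apart from the background.

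Inside gene bodies the same lists gave a few more peaks, which were looked up after the data were seen. They marked 2 of 44 p53 targets and 1 each of 44 germline, 60 Wnt and 47 apoptosis genes. Over all 21887 protein-coding genes 482 held such a peak, and counts this small are not set apart from that share. None was marked in the DNA damage, pluripotency, 2-cell, or DPPA and p53 core lists. Trp73, the gene of the p53 relative p73 and a p53 target, held 2 untreated-only peaks inside it. The first, at chr4:154097111-154097348, was 21 bp before the internal start shown among the sequences, with a fold of 4.97 and 15 fragments over 2.22, and the nearest adriamycin summit was 7722 bp away. The second, at chr4:154061317-154061520, had 5.43 with 19 fragments over 2.68 and an adriamycin summit 2887 bp away. Piwil1, a piRNA-binding Argonaute gene of the male germline, had a fold of 4.91 with 16 fragments, 597 bp from an adriamycin summit. Xpc, the damage sensor of nucleotide excision repair, had 4.64 with 13 fragments, Dvl3, a Wnt signal transducer gene, 4.74 with 17, and Tradd, a TNF receptor adaptor gene, 3.54 with 13.

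Other families were marked at their gene ends at shares on either side of the 1.44% of all genes. Zinc finger genes had 12 of 467 marked (2.57%), of which Zfp24 was highest at a fold of 5.49 with 17 fragments and Zfp640 lowest at 3.67 with 15. Regulators of small GTPases had 8 of 344 (2.33%), among them the vesicle traffic genes Rab14 at 5.56, Rab5a at 5.11 and Rab11a at 4.35. Glycosyltransferase and sugar sulfotransferase genes had 4 of 160 (2.5%), namely St6galnac1, Hs2st1, Hs3st4 and Dpm1. Ubiquitin system genes had 8 of 425 (1.88%) and RNA processing genes 4 of 217 (1.84%). Solute carrier genes had 6 of 439 (1.37%) and immune receptor and cytokine genes 4 of 392 (1.02%). Ion channel genes had 2 of 245 (0.816%), motor and cytoskeleton genes 2 of 230 (0.870%), adhesion genes 1 of 178 (0.562%) and genes of mitochondrial ribosomes and respiration 1 of 213 (0.469%). Chemosensory receptor genes, for odorants, pheromones and tastes, had 2 of 1518 (0.132%), and adriamycin summits at 1.05% of them. Peaks only inside the gene ordered the families otherwise. They were in 21 of the 245 ion channel genes and 22 of the 467 zinc finger genes. Among the 392 immune genes they were in 3, and among the 1518 chemosensory genes in 2. Over all 21887 genes 482 held a peak inside, and gene length was not allowed for.

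None of 39 Hox genes, 36 imprinted genes or 80 cytosolic ribosome genes was marked. Histone genes had 1 of 102, the testis linker histone gene H1f7, with a fold of 4.28 and an adriamycin peak 17 bp away.

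The 514 peaks inside genes lay in 482 genes, 450 of which held 1, 25 held 2 and 7 held 3 or more. These genes were long, with a median of 70 kb against 17.2 kb over all protein-coding genes. A long gene offers more bases for a peak to fall in, so the choice of genes by a peak inside them favours length. The strongest were in Zfp978, a zinc finger gene, at a fold of 8.19 with 18 fragments over 1.32, and in Rgs20, a regulator of G-protein signalling, at 7.45 with 20 over 1.82. Htr1f, a serotonin receptor gene, Kcnj3, a potassium channel gene, and Pramel35 tied at 7.30 with 15 fragments at the genome-wide background. An adriamycin summit was 5933 bp from the Rgs20 summit, 6091 bp from that of Htr1f, 18865 bp from that of Zfp978, 59244 bp from that of Pramel35 and 136312 bp from that of Kcnj3.

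Genes with several peaks inside them included Tenm3, a teneurin gene of neuronal wiring, with 3 untreated-only peaks of fold 4.11 to 6.72, 2 shared and 5 adriamycin peaks in 1297 kb. Atp9a, a lipid flippase gene, had 3 of fold 4.12 to 4.98, no shared peak and 4 adriamycin peaks in 108 kb. Zfp978 and Gm26650 had 4 each. These genes were named after their counts were seen.

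Between genes, 3 of the 5 strongest untreated-only peaks lay in a non-coding or immunoglobulin gene, and the other two lay in no annotated gene. A peak in the immunoglobulin heavy chain locus Igh, at chr12:115105478-115105717, and one in the long non-coding RNA gene Snhg14, at chr7:59480220-59480461, shared the highest fold of the set, 9.12, each with 19 fragments over 1.19. The next were in the lncRNA gene Gm28905 on chromosome 10 at 8.67, on chromosome 1 at 8.48 with Sec16b the nearest protein-coding gene at 308913 bp, and on chromosome 13 near the predicted gene Gm10324 at 8.33. Their nearest adriamycin summits were 7657, 264268 and 18838 bp away. Of the 626 between-gene peaks 28 were at a pseudogene end and 13 at a lncRNA end.

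Most untreated-only peaks were spread over the genome, and a minority gathered in a few windows. Counting in windows of 1 Mb, 939 windows held at least 1, and 665 of those held 1 alone. Windows with 5 or more numbered 19, and they held 175 untreated-only peaks, or 12.2% (10.6 to 14.0). The same windows held 4.79% of shared peaks and 2.13% of adriamycin-only peaks, but since untreated-only peaks chose the windows, that difference is a description. In these windows 10.3% of untreated-only summits were at gene ends (6.21 to 15.8), against 21.7% elsewhere (19.4 to 24.1). Shared summits in the same windows had 9.29% at gene ends, against 16.5% elsewhere. Median local background was 2.46 fragments under untreated-only peaks in them and 1.86 elsewhere. For shared peaks it was 3.16 and 1.90, and the part of background in the result was not tested.

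The densest was on chromosome 8 (20000001-21000000), with 29 untreated-only peaks of 106 in the untreated list and 100 adriamycin peaks, a median background of 4.54 and 14 pseudogenes among 25 genes. Adjacent windows on chromosome 4 (146000001-147000000 and 147000001-148000000) held 12 of 25 and 17 of 31 untreated peaks, in an array of zinc finger genes. A window on chromosome 5 that holds Speer genes, a rodent testis-expressed family, had 12 of 32. On chromosome 13 the windows at 65000001 and 66000001 had 7 of 26 and 11 of 26, and 4 windows on chromosome 14 between 4000001 and 8000000 had from 5 to 9. The adriamycin list held 7 to 100 peaks in each of the 19 windows, so the untreated-only peaks lay among adriamycin peaks at other positions.

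**Figure D4:**
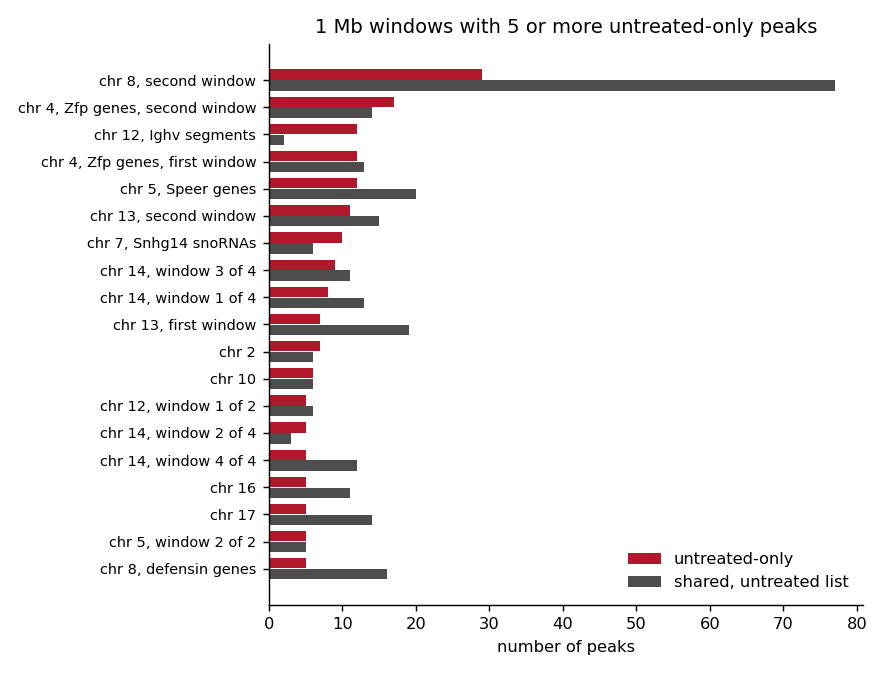
Number of peaks (x axis) in the 19 windows of 1 Mb that hold 5 or more untreated-only peaks, for untreated-only and shared peaks of the untreated list, highest at top, with windows named by chromosome and gene family. The first chromosome 8 bar shows 29 untreated-only and 77 shared peaks, and the Ighv and Snhg14 windows show more untreated-only than shared peaks.

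Snhg14 and Igh held clusters in which most untreated peaks had no partner. Both loci were picked after the counts of their windows were seen, so high shares there are partly fixed by the choice. The intervals do not allow for that choice, and the share over all untreated peaks was 20.3%. Snhg14 is the imprinted, paternally expressed host of the snoRNA arrays of the Prader-Willi region and runs from 59272737 to 60450177 on chromosome 7. Of its 16 untreated peaks 10 were untreated-only (62.5%; 35.4 to 84.8), and it also held 18 adriamycin peaks. The 10 had folds of 4.25 to 9.12 and 9 to 19 fragments, 5 of them at the genome-wide background. Each summit was 2 to 1116 bp from the nearest of 206 annotated snoRNA genes, with a median of 508 bp, and neighbouring summits were a median of 8423 bp apart. The 1 Mb window of these peaks holds 206 snoRNA genes, so most positions among them lie close to one. The distances are thus a description, and none was taken for the other peaks of the locus. The adriamycin summits nearest to them were 702 to 18695 bp away.

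Igh, whose variable segments recombine in B cells, runs from 113258768 to 116009954 on chromosome 12. It held 15 untreated-only peaks among 17 untreated peaks (88.2%; 63.6 to 98.5) and 16 adriamycin peaks. Their folds were 3.57 to 9.12, the summits were a median of 5284 bp from a variable segment, and 12 of the 15 lay in the window at 115000001. Both loci are made of similar repeated units, where reads can map to more than 1 copy, and how such reads were treated is not given in the sources used here. Their part in the result was not tested.

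By chromosome the untreated-only share of untreated peaks was lowest on chromosome 1, at 13.4% (10.7 to 16.5), and highest on chromosome 7, at 27.7% (23.4 to 32.4), beside 20.3% in all. Chromosome 12 had 26.6% (21.8 to 31.9) and chromosome 5 had 24.4% (20.5 to 28.6). The X chromosome had 17.8% and Y 16.3%. All chromosomes other than 1, 5, 7 and 12 had intervals that held 20.3%. Without the windows that held 5 or more untreated-only peaks, the share was 23.0% on chromosome 12 and 22.7% on chromosome 5. It was 26.3% on chromosome 7 and still 13.4% on chromosome 1.

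Most untreated-only summits were far from any adriamycin summit on the scale of a peak, but closer than adriamycin-only summits were to untreated ones. The distance to the nearest adriamycin summit had a median of 28308 bp (quartiles 8082 and 81434, range 95 to 3154477). For adriamycin-only peaks the median distance to an untreated summit was 107194 bp (quartiles 38988 and 235618). The adriamycin list is the longer of the lists, which by itself places more summits near any position. To other untreated summits, untreated-only peaks were a median of 86186 bp away and shared peaks 97578 bp.

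Some untreated-only peaks lay close beside an adriamycin peak. Within 2500 bp of an adriamycin summit were 242 untreated-only peaks (16.9%; 15 to 19), against 408 adriamycin-only peaks (3.83%; 3.48 to 4.22) within 2500 bp of an untreated summit. By comparison 92 untreated-only peaks (6.43%) were that close to another untreated summit. The gap between the untreated-only peak and an adriamycin peak was at most 100 bp in 66 cases and at most 500 bp in 145, of which 2 were at exactly 500 bp. For 71 of the 242 (29.3%) the adriamycin neighbour overlapped a different untreated peak, and for 171 it overlapped none. The median fold was 4.50 for the near untreated-only peaks, 4.75 for their adriamycin neighbours and 4.64 for untreated-only peaks farther away. Gene ends held 19.8% of near and 20.4% of farther untreated-only peaks.

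**Figure D5:**
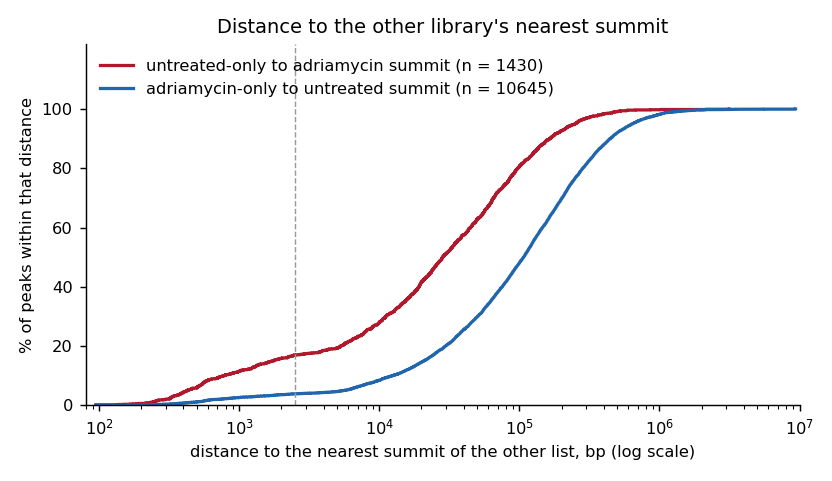
Cumulative share of peaks (y axis, %) within a given distance (x axis, bp, log scale) of the nearest summit of the other list, for untreated-only peaks to adriamycin summits and for adriamycin-only peaks to untreated summits; the dashed line marks 2500 bp. At that line the curves stand at 16.9% and 3.83%.

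The edge of the definition was thin. The untreated-only peaks with the smallest gaps lay 2 bp from an adriamycin peak at chr13:98890752-98890988 inside a gene, 2 bp at chr5:78153880-78154140 with Igfbp7 as the nearest gene, and 4 bp at chr2:88711415-88711614 near Olfr1196. Their folds were 3.90, 5.34 and 5.02, with 10, 13 and 10 fragments, and their summits were 332, 254 and 371 bp from the adriamycin summit. Just inside the shared set, peaks at Ephb2, an ephrin receptor gene, and Sh3rf3 overlapped an adriamycin peak by 1 bp, and one at Cldn11, a tight junction gene, by 2 bp. Their folds were 4.62, 5.23 and 3.69, with 16, 17 and 12 fragments, and their summits were 298, 284 and 277 bp from the adriamycin summit. At the other extreme were peaks on Y near Gm20896 and Gm21462, 3154477 and 2137542 bp from any adriamycin summit, and one on X near Vmn2r121, a pheromone receptor gene, at 1016788 bp. These had 10, 9 and 10 fragments at the genome-wide background.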

How the data were processed

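DPPA2 ChIP-seq peaks were used from 2 libraries, 1 of cells given adriamycin for 8 h and 1 of untreated cells. Groups came from the sample titles and treatment labels. In the treated sample the genotype label gives the treatment instead, and p53 status is from the series' design text. Build mm10, MACS3 3.0.0b1, Bowtie2 2.5.1, SAMtools, deepTools 3.5.1 and FastQC 0.12.1 are named in the submitters' processing notes. The sources used here do not state filters, the calling command or an input control.

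The deposited list of each library gives for every peak the authors' fold (a ratio of summit over local background), −log10 p, −log10 q, a score and a summit offset. Folds are not scaled between libraries. The lists carry no read totals. Fragments at each summit were recovered as the whole number that, with a pseudocount of 1, gives the authors' fold and −log10 p under a Poisson upper tail within 0.001. This worked for all 1430 untreated-only peaks and all but 10 of the 5613 shared ones. Recovery, overlap counts and gene-end assignment were checked on simulated data with known answers. The simulated folds were made with the same formula, so that check does not show that it holds for the authors' values. The summit-to-summit distances and the gaps were not checked this way.

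Overlaps of at least 1 bp were found by interval arithmetic in Python 3.11.15 (numpy 2.4.6, pandas 2.3.3, scipy 1.17.1), and plots used matplotlib 3.10.9. Genes came from a RefSeq table of GRCm38.p6, which places 21887 protein-coding genes on these chromosomes. Strand and start sites came from RefSeq promoters, which covered 17492 of them. Chromosome 18 had none, so the promoter, motif and start-site results leave it out. Exons and introns were not annotated here. Some items are not reported here. Peaks on unplaced contigs and the mitochondrial genome were left out of the comparisons.

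The peaks, gene lists and alternatives were chosen with earlier results of these data known. Named genes are the 12 gene-end peaks of highest fold and the 5 highest each inside and between genes. Members of the germline, Wnt, p53, apoptosis, DNA damage, pluripotency, 2-cell and DPPA lists with a gene-end peak, genes with 2 such peaks, and the 3 nearest, least overlapping and farthest peaks are named too. Others were named after their values were seen, as were the sequences and the dense windows. With 1 library per group no test was run and no p-value is given. Intervals at 95% are exact, Clopper-Pearson on shares and Poisson on fragments, and they cover counting error only.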

Additional observations from a re-analysis of the deposited data

Results flagged for a closer look

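Outside the chromosomes used for the comparisons, 21 untreated peaks on unplaced contigs overlapped no adriamycin peak, of 123 untreated contig peaks (17.1%; 10.9 to 24.9). They lay on 12 contigs, with at most 4 on any of them, and had a median fold of 4.36. They are set apart here because these contigs belong to no comparison above. The adriamycin list held 136 contig peaks. On the mitochondrial genome there were 6 adriamycin and 3 untreated peaks, and 0 of the 3 lacked an overlap.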

How the results depend on the processing

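The count of 1430 untreated-only peaks depends on the length and threshold of both lists. It was 2607 when adriamycin peaks needed a q of at most 1e-05, 2997 when the adriamycin list was cut to the strongest as many as the untreated list holds, and 388 when untreated peaks needed that q. Under the same settings the 315 genes became 599, 687 and 60, and a 500 bp window at gene ends gave 204. The gene-end share of 20.3% became 26.2% with all annotated genes, 13.7% with the 500 bp window and 14.2% with the strict untreated q. The share near an adriamycin summit, 16.9%, became 7.29% with the strict adriamycin q, 5.57% with lists of equal length, 19.1% with the strict untreated q and 19.2% with 5000 bp as near. It was 7.69% when an adriamycin peak less than 500 bp away counted as shared and 31.5% when 50% coverage was needed. The stricter or shorter lists change the number of untreated-only peaks by construction, and the narrower window takes in fewer genes by construction. For the shares, the 500 bp window can only lower the gene-end value, and more annotated genes or 5000 bp as near can only raise theirs. Counting peaks less than 500 bp away as shared removes peaks beside an adriamycin peak, and the 50% rule adds peaks that overlap one. For the shares under the stricter or shorter lists the cause was not tested. The other 13 values stayed within 1.5 times (counts) or within the counting interval (shares), among them all 4 without the dense windows (1255 peaks, 296 genes, 21.7% and 15.3%), a setting chosen after seeing the data. No paired analysis was possible because each group had 1 library. Summits of 6 or 7 fragments were the lowest called at the genome-wide background, so weaker sites are not visible in either list.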

Other observations

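Promoters of long non-coding RNA genes under untreated-only summits were CpG-rich more often than such promoters are in general. Within 1 kb of a listed start there were 57 lncRNA promoters of 52 genes with an untreated-only summit. Of these 56.1% were CpG-rich (42.4 to 69.3), with a median of 18 CG per 300 bases, against 12% and a median of 4 over all 11588 lncRNA promoters. Some of them overlap the promoter of a protein-coding gene under the same peak. Examples are Gm41287 with Marchf6, Gm36278 with Bckdhb, Gm43653 with Ap1ar and 4732491K20Rik with Map3k4. Such windows share bases with a coding promoter, and the part of this in the lncRNA share was not tested. No lncRNA share was taken for the other peak sets. For protein-coding genes the shares were 73.7% (68.1 to 78.7) of 281 promoters near an untreated-only summit and 45.1% of all 21263. The strongest summit inside a lncRNA promoter was at Gm20110 on chromosome 10, with a fold of 6.54 and 16 fragments, 150 bp before the start and 20 CG in the window.

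Of the promoters with an untreated-only summit inside the 300 bases, 5 more are given here as examples, picked by hand after their values were seen. Cbfa2t3, a transcriptional corepressor gene of blood development, had a fold of 5.64 with 22 fragments and 53 CG. Htr7, a serotonin receptor gene, had 5.26 with 13 fragments and 46 CG. Hells, a chromatin remodeller gene needed for DNA methylation, had 4.83 with 13 fragments and 34 CG. Dnaja1, a co-chaperone gene with a pair of listed starts, had 5.43 with 13 fragments and 36 CG in both windows. Samd11 differed from these in having 10 CG and a TATAAA match, with a fold of 5.47 and 11 fragments.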
